A study of Mus musculus with 19 samples.

Results

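Pon2 and Pon3 are 2 paraoxonase genes that lie next to each other on mouse chromosome 6, and they were followed through the spleens of mice with lymphoma driven by a human HGAL gene. They were the 2 members chosen of 22180 genes measured, each with 1 of the 41345 probe sets of the array (probe set 17464626 for Pon3, Entrez gene 269823; probe set 17464638 for Pon2, Entrez gene 330260). A probe set counted as a member where it was annotated to exactly 1 of both symbols, and 0 probe sets named a member together with another gene. The pair was selected on measured values, namely the low Pon3 of tumour spleens from mice carrying Aid-Cre. Every difference of Pon2 or Pon3 that involves those spleens is thus given as a description with no test.

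Total RNA of whole spleen was hybridised to 1 Affymetrix array for each of 19 mice. There were 4 spleens with tumours from mice of genotype Rosa26-HGAL+Aid-Cre, 5 with tumours from Rosa26-HGAL+Mb1-Cre mice, 4 with tumours from Rosa26-HGAL+Sca1-Cre mice, 3 Rosa26-HGAL+Sca1-Cre spleens from before tumours had formed (pre-tumour), and 3 spleens of wild-type mice. All transgenic groups shared the Rosa26-HGAL allele, and the wild-type mice carried neither it nor a Cre gene. The animals lived in a conventional facility with exposure to common pathogens, and their ages and strain background are not given in the labels. HGAL is an adaptor protein of germinal centre B cells. Aid-Cre acts in activated B cells, Mb1-Cre from early B cell development and Sca1-Cre in stem and progenitor cells, so the cells that carry HGAL differ between the drivers while every array measured the whole organ.

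Paraoxonases are calcium-dependent lactonases and esterases with 3 family members in mammals. Pon1 and Pon3 are best known as liver enzymes that circulate on high-density lipoprotein, where they protect lipids from oxidation, while Pon2 is made in most tissues and stays inside the cell. Pon2 and Pon3 also occur in the endoplasmic reticulum and in mitochondria, where they limit oxidative stress, in part through coenzyme Q, and both have been studied in tumour cells for protection against cell death.

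In the mouse gene table (build GRCm38.p6) the 3 genes stand side by side on chromosome 6: Pon1 from 5168090 to 5193987, Pon3 from 5216256 to 5256285 and Pon2 from 5264620 to 5298345. Their promoters are shown because Pon3 and Pon2 are neighbours whose values differed in pattern over the spleens. The bases directly before each gene, read 5′ to 3′ on the minus strand from the RefSeq promoter table of GRCm38.p6, were as follows, from chr6:5256286-5256483 for Pon3 and chr6:5298346-5298590 for Pon2, with capitals marking the GC box letters GGGCGG.
Pon3: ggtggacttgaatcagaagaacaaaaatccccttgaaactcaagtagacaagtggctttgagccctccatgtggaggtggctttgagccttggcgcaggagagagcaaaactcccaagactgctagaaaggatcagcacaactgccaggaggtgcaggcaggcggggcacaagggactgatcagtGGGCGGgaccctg
Pon2: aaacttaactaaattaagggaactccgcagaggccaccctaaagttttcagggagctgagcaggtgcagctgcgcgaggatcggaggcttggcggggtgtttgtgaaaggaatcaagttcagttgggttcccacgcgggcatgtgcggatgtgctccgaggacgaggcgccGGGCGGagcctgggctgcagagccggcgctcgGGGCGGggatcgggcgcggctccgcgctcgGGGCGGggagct

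The table's windows are the 250 bases before a RefSeq transcript start that lies inside the gene model, so the last 52 bases of the Pon3 window and the last 5 of the Pon2 window belong to the gene and are not printed. Pon3 held 1 GC box and Pon2 held 3, all of them in the printed bases. GGGCGG was searched on both strands, and 32.7% of 32851 promoter windows of the same length held it. Over whole windows, that of Pon2 was richer in CpG dinucleotides, with 24 against 6 in Pon3 (24 and 3 in the printed bases), where the median window held 6, and 88.0% of windows had fewer than Pon2. Its GC content was 65.6% against 56.8% for Pon3 and a median of 52.4%. On both strands, CCAAT had no match in the windows of Pon3 or Pon2, and 33.8% of all windows held it. The letters TATAAA, held by 12.4% of windows, were not in either window. The core of the antioxidant response element, TGACNNNGC, was absent from both too and present in 10.2% of windows. Pon1 had no GC box and 2 CCAAT matches.

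Across the series, array medians lay between 5.23 and 5.40 on the deposited log2 scale and the 40th percentile of an array between 4.72 and 4.90, and values under that range were read as near background. B cell markers stood lowest in Aid-Cre tumour replicate 2, at -3.55 relative to the wild-type mean over 9 measured genes on the log2 scale. Neutrophil markers (11 genes) stood 1.98 to 2.77 above the wild-type mean in the Mb1-Cre tumours. They were split in the Aid-Cre tumours, at 1.93 and 2.44 in replicates 1 and 2 and at -2.09 and -1.99 in replicates 3 and 4. Exocrine pancreas markers were highest in Mb1-Cre tumour replicate 2 (3.03 above) and wild type replicate 2 (0.97 above). Of 9 hepatocyte markers, 6 had a mean over all arrays below the 40th percentile of gene means (5.04), Alb among them.

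Pon3, the lactonase bound to high-density lipoprotein and cell membranes, was higher in Mb1-Cre and Sca1-Cre tumour spleens than in wild-type spleens, while 3 of 4 Aid-Cre tumours lay below every wild-type spleen and 1 above every one. Its log2 values were 6.62, 6.35 and 6.58 in the wild-type spleens (mean 6.52 ± 0.14, SD, n = 3), and 7.15, 6.64 and 7.07 in the pre-tumour spleens (6.95 ± 0.27, n = 3). The Sca1-Cre tumours gave 7.10, 7.69, 7.97 and 8.29 (7.76 ± 0.50, n = 4) and the Mb1-Cre tumours 7.46, 7.47, 7.31, 7.54 and 7.96 (7.55 ± 0.24, n = 5). The Aid-Cre tumours gave 6.77, 6.31, 5.80 and 6.20 (6.27 ± 0.40, n = 4). Every Mb1-Cre and Sca1-Cre tumour was above every wild-type and every Aid-Cre array, and the lowest value of all 19 arrays belonged to Aid-Cre tumour replicate 3. The Aid-Cre and wild-type ranges overlapped.

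**Figure D1:**
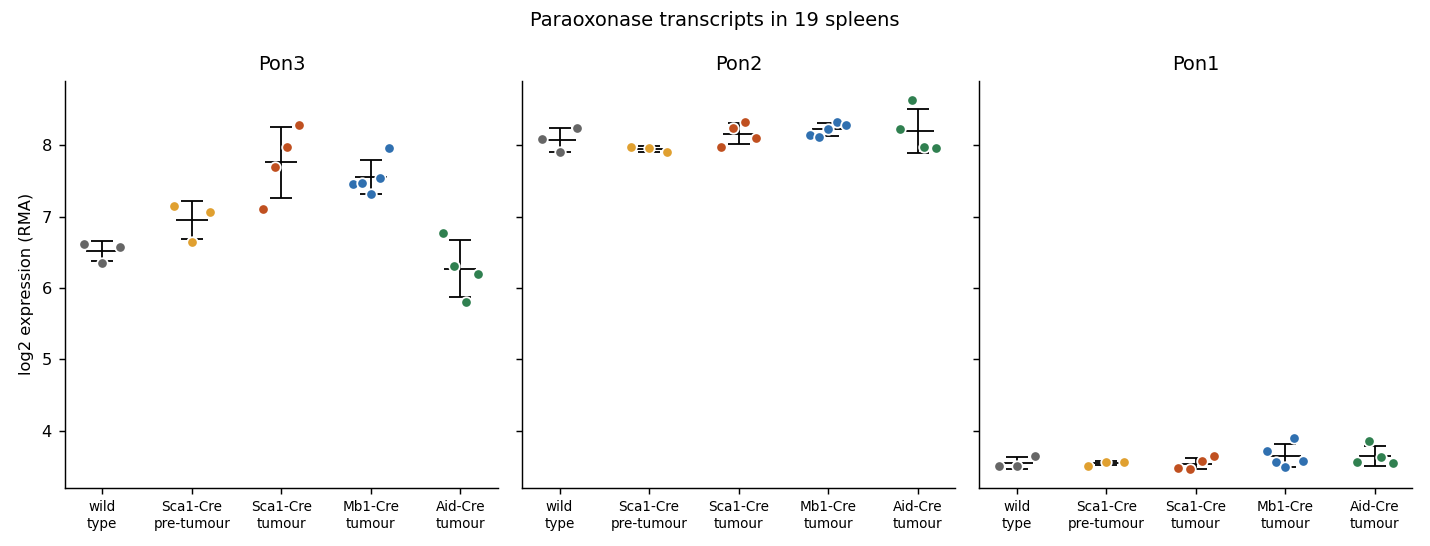
Log2 expression (RMA, vertical axis) of Pon3, Pon2 and Pon1 in each of 19 spleens, by group; points are arrays, the long bar is the group mean and the error bars are 1 SD. Pon3 has means of 6.52 in wild type, 7.76 in Sca1-Cre, 7.55 in Mb1-Cre and 6.27 in Aid-Cre tumours, while the group means of Pon2 stay between 7.95 and 8.22; heights are not to be compared between panels, since probe sets differ in response.

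Ordered by mean, Pon3 was lowest in Aid-Cre tumours, then in wild type, pre-tumour spleens, Mb1-Cre tumours and Sca1-Cre tumours. Neighbouring groups in this order were 0.25, 0.44, 0.59 and 0.22 apart on the log2 scale, against a spread within groups of 0.35 (SD). The first and the last of these steps were smaller than that spread, and their groups overlapped. Groups accounted for 79.7% of the squared spread of Pon3 over the 19 arrays, whose range was 2.49. The Aid-Cre values behind the choice are part of this share, so the choice favoured a high one and nothing is read from it. In whole spleen, fewer cells of a type and less RNA per cell cannot be told apart.

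As a description, the Aid-Cre mean of Pon3 minus that of the Mb1-Cre tumours was -1.28 ± 0.22 on the log2 scale (SE of the limma fit), so that it was 2.42-fold lower, with no overlap. Minus the Sca1-Cre tumours it was -1.49 ± 0.23, or 2.81-fold lower, again with no overlap. Over all genes, 2.03% had no overlap between the groups in the first of these comparisons and 6.01% in the second. In limma's fit over all 22180 genes, 10 genes passed a Benjamini-Hochberg adjusted p of 0.05 in each of both comparisons (0.0451% each). The choice rested on the low Pon3 of Aid-Cre tumours, through a comparison that was not stated. Nothing is thus read from the place of Pon3 in these comparisons. Neutrophil markers had a median difference of -2.19 in the first comparison and -0.78 in the second. T cell markers (8 genes) had 0.05 and -0.92, and B cell markers -0.01 and -0.36, against 0.01 over all genes in both. Macrophage and red pulp markers (13 genes) had -0.54 and -0.09, and mast cell and basophil markers (7 genes) -0.37 and -0.27. Plasma cell markers (7 genes) had -0.26 and -0.41, natural killer cell markers (7 genes) 0.35 and -0.5, and erythroid markers (8 genes) -0.18 and 0.64. The part of these cell types in the Pon3 differences was not tested.

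Against wild type the Aid-Cre mean of Pon3 differed by -0.25 ± 0.25, and against the pre-tumour spleens by -0.68 ± 0.25, with overlap in both. The limma fit called 4 genes (0.018%) in the first and 0 genes (0%) in the second, where 1811 had an unadjusted p under 0.05. The low Pon3 of Aid-Cre tumours was therefore low beside the other tumours, while its range overlapped with that of healthy spleen. With each array left out in turn, the difference from wild type ranged from -0.41 to -0.09.

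The 6 comparisons without Aid-Cre spleens were tested with the same limma fit, with adjustment over all genes, and neither gene was called in any of them. In the comparisons of Mb1-Cre or Sca1-Cre tumours these tests share tumour arrays with differences that may have singled out Pon3, so they cannot be taken as independent of its choice. Pon3 was 1.03 ± 0.24 higher on the log2 scale in Mb1-Cre tumours than in wild type, or 2.04-fold (95% interval 0.53 to 1.53, limma adjusted p = 0.185), with 5 of 5 tumours above every wild-type spleen. This missed the threshold although the interval lies above 0. The same fit called 0 of 22180 genes there (0%), while 2514 had an unadjusted p under 0.05 and 9.48% of genes had no overlap between the groups. Fitted on those 8 arrays alone, the difference of Pon3 passed, with a limma adjusted p of 0.0423, and with array weights it was 0.98 (adjusted p = 0.0326); over 13 alternative settings the adjusted p ran from 0.0326 to 0.571. Array weights also took the called genes of this comparison from 0 to 343. In the same 5 tumours the neutrophil markers were 1.98 to 2.77 above the wild-type mean and the B cell markers between -1.99 and -0.51. Their part in the Pon3 difference was not tested.

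In Sca1-Cre tumours Pon3 was 1.25 ± 0.25 above wild type, or 2.37-fold (95% interval 0.72 to 1.77, limma adjusted p = 0.0826), in 4 of 4 tumours. Limma called 9 genes there (0.0406%), Pon3 ranked 30th by p, and 12.1% of genes had no overlap. Without Sca1-Cre tumour replicate 1, whose Pon3 was the lowest of its group, the difference was 1.47 and passed (limma adjusted p = 0.0406); with array weights it was 1.15 (adjusted p = 0.0337), and over 13 alternative settings the adjusted p ran from 0.0337 to 0.3. Over the other arrays left out, the call did not change. The number of genes called in this comparison ran from 0 to 99 over the 13 settings. Over the 4 Sca1-Cre tumours the B cell markers ran from -2.09 to 0.03 relative to the wild-type mean, the neutrophil markers from -0.33 to 1.87, the mast cell and basophil markers (7 genes, Fcer1a below the 40th percentile) from 0.01 to 1.86 and the erythroid markers (8 genes) from -1.88 to 0.50. The B cell markers of replicate 1 stood 0.03 above the wild-type mean and its neutrophil markers at -0.33, the lowest of the group. The part of these cell types in the Pon3 difference was not tested.

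Before tumours, Pon3 was 0.44 ± 0.27 above wild type (95% interval -0.12 to 1.00, limma adjusted p = 0.887). The groups did not overlap, as for 16.8% of all genes, and limma called 1 gene (0.00451%). This tested comparison holds no tumour array, though its arrays also stand in the other Aid-Cre differences. Erythroid markers ran from -3.36 to -0.96 in the pre-tumour spleens and from -0.43 to 0.37 in wild type, and their part in the Pon3 values was not tested. Sca1-Cre tumours were 0.81 ± 0.25 above their pre-tumour counterparts (95% interval 0.28 to 1.33, adjusted p = 0.851). Here limma called 0 genes (0%), 1185 had an unadjusted p under 0.05, and 1 tumour lay below the highest pre-tumour spleen. Mb1-Cre tumours were 0.59 ± 0.24 above the pre-tumour spleens (95% interval 0.09 to 1.10, limma adjusted p = 0.220) with no overlap, where 14.7% of genes had none and 0 genes (0%) were called, against 4033 at an unadjusted p under 0.05.

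Between the Mb1-Cre and Sca1-Cre tumours Pon3 differed by -0.22 ± 0.22 (95% interval -0.68 to 0.25, limma adjusted p = 0.635), and 9 genes were called (0.0406%). The interval reaches -0.68, with Sca1-Cre higher, so likeness of both tumour groups was not shown.

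Pon2, the intracellular paraoxonase, stayed within a narrow band. Its log2 values were 8.08, 7.91 and 8.24 in wild type (8.07 ± 0.17, SD, n = 3) and 7.98, 7.96 and 7.91 before tumours (7.95 ± 0.04, n = 3). The Sca1-Cre tumours gave 7.98, 8.24, 8.32 and 8.10 (8.16 ± 0.15, n = 4) and the Mb1-Cre tumours 8.14, 8.12, 8.22, 8.32 and 8.28 (8.22 ± 0.09, n = 5). The Aid-Cre tumours gave 8.23, 8.64, 7.98 and 7.96 (8.20 ± 0.31, n = 4). They held the highest Pon2 array of all, replicate 2, beside a pair at the level of the pre-tumour spleens. All group ranges overlapped with that of the Aid-Cre tumours.

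The order of Pon2 means was pre-tumour, wild type, Sca1-Cre, Aid-Cre and Mb1-Cre, with steps of 0.13, 0.09, 0.04 and 0.02 against a spread within groups of 0.18 (SD). Every step was below that spread and every neighbouring pair of groups overlapped. The range over 19 arrays was 0.73, and groups accounted for 27.6% of the squared spread. No such share was taken over all genes, so this one is not set against that of Pon3. Aid-Cre tumour replicate 2, with Pon2 at 8.64, was also the array with the lowest B cell markers and with neutrophil markers 2.44 above the wild-type mean. The Aid-Cre mean was 0.13 ± 0.14 above wild type (SE), and from -0.02 to 0.21 with each array left out in turn.

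Pon2 thus did not share the low Aid-Cre mean of Pon3. Its Aid-Cre mean differed by -0.02 ± 0.12 from the Mb1-Cre tumours and by 0.04 ± 0.13 from the Sca1-Cre tumours. From the pre-tumour spleens it differed by 0.25 ± 0.14, again as a description. With each array left out in turn, the first 2 of these ranged from -0.16 to 0.07 and from -0.1 to 0.12. Single arrays varied: Aid-Cre tumour replicates 3 and 4, the lowest in Pon3, had Pon2 at 7.98 and 7.96. The lowest Mb1-Cre tumour had 8.12 and the lowest Sca1-Cre tumour 7.98. Against wild type, limma gave 0.14 ± 0.13 for Mb1-Cre tumours (95% interval -0.13 to 0.42, adjusted p = 0.695) and 0.09 ± 0.14 for Sca1-Cre tumours (interval -0.20 to 0.37, adjusted p = 0.858). The upper ends of these intervals lie below the lower ends of those for Pon3 in the same comparisons. These comparisons share tumour arrays with differences that may have singled out Pon3. The choice may thus have favoured such a gap, and nothing is read from it. The difference between both genes was not itself tested.

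For pre-tumour against wild type, limma gave Pon2 a difference of -0.13 ± 0.14 (95% interval -0.43 to 0.18, adjusted p = 0.942). Both tumour groups stood slightly above the pre-tumour spleens, the Sca1-Cre tumours by 0.21 ± 0.14 (interval -0.07 to 0.50, limma adjusted p = 0.851) and the Mb1-Cre tumours by 0.27 ± 0.13 (adjusted p = 0.281). Neither pair of groups overlapped, which 8.36% and 14.7% of all genes shared. In the first pair the highest pre-tumour and the lowest tumour value both round to 7.98, so that separation is minute. Between both tumour groups Pon2 differed by 0.06 ± 0.12 (limma adjusted p = 0.842).

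**Figure D2:**
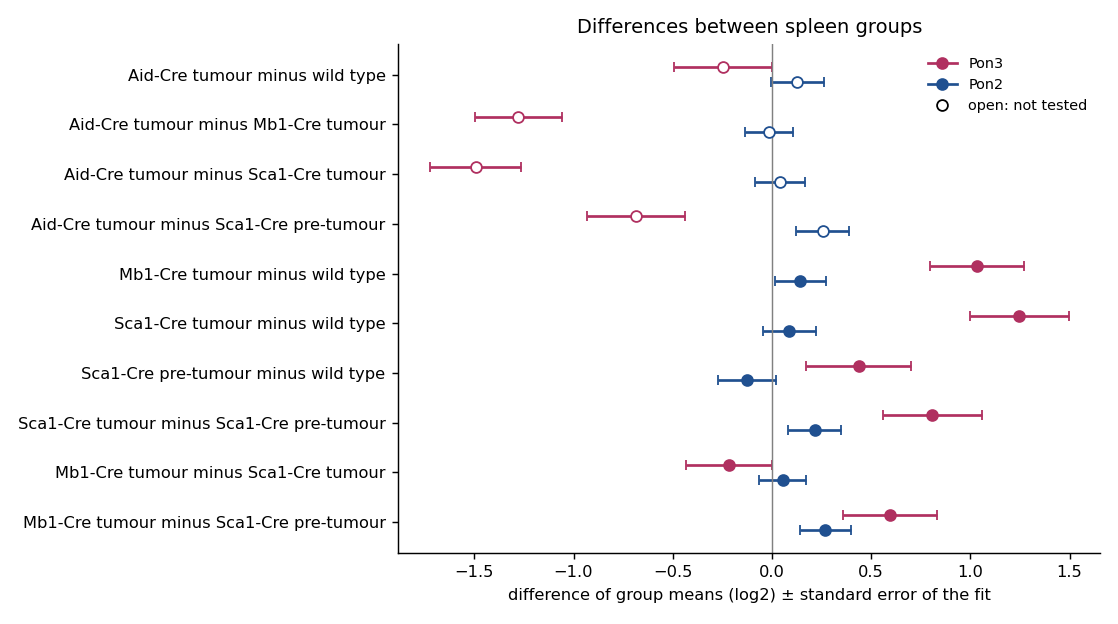
Differences of group means in log2 units (horizontal axis) with the standard error of the fit for Pon3 and Pon2 in 10 comparisons; open points involve the Aid-Cre spleens used in the choice and were not tested. Pon3 runs from -1.49 to 1.25, while Pon2 lies between -0.13 and 0.27.

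Pon1, the third family member and the main serum paraoxonase, was near background. Its group means were 3.55 ± 0.08 (SD, n = 3) in wild type, 3.55 ± 0.03 (n = 3) before tumours, 3.54 ± 0.08 (n = 4) in Sca1-Cre, 3.65 ± 0.16 (n = 5) in Mb1-Cre and 3.65 ± 0.14 (n = 4) in Aid-Cre tumours. Differences between groups ran from -0.01 to 0.11, and limma called it in 0 of 10 comparisons.

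Whether Pon2 moved with Pon3 from spleen to spleen was examined on deviations from the group means. This removes the group means behind the choice, but not the spread within groups, on which limma's fit also depends. Over 19 arrays Pearson's r was 0.39 (permutation p = 0.217 within groups, adjusted 0.217) and Spearman's rho 0.51 (permutation p = 0.0526, adjusted 0.105). Neither coefficient passed after adjustment over both. Without the 2 arrays farthest from the median Pon3 deviation, Sca1-Cre tumour replicates 1 and 4, r was 0.38 (permutation p = 0.383) and rho 0.54 (permutation p = 0.0452) over 17 arrays. Leaving out single arrays moved r between 0.27 and 0.55. Aid-Cre tumour replicate 2 stood apart, with the highest Pon2 and a Pon3 near its group mean, and without it r was 0.55 (permutation p = 0.0685).

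**Figure D3:**
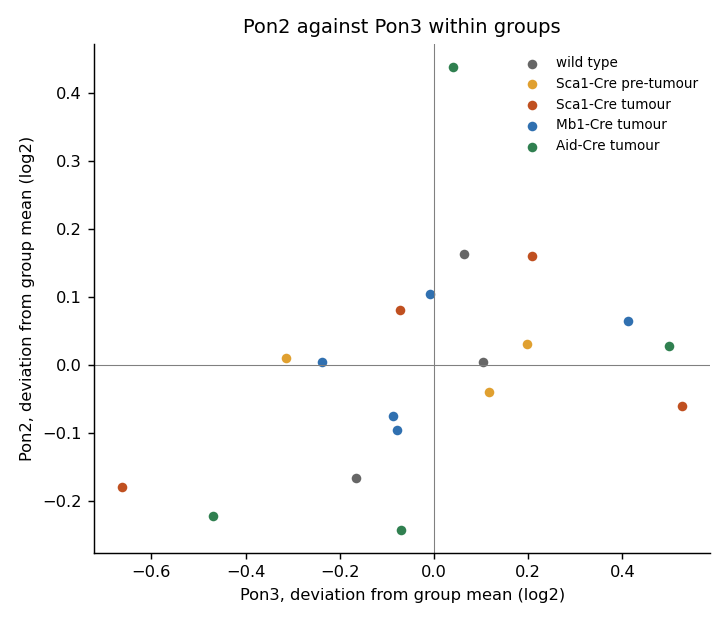
Each spleen's deviation from its group mean, Pon3 on the horizontal and Pon2 on the vertical axis, both in log2 units, coloured by group. The 19 points scatter around a weak upward tendency (Pearson's r 0.39), and the highest point is Aid-Cre tumour replicate 2.

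On the chromosome, the 10 measured genes on either side of the cluster were read next to the paraoxonases. Of these 20 neighbours, 11 had a mean below the 40th percentile of gene means (5.04). Limma called 0 of 20 in each of the 10 comparisons, where at most 0.0451% of all genes were called. Nothing about these neighbours is read from that count. The nearest, Ppp1r9a, lies 2.4 kb from Pon1 and encodes an actin-binding scaffold; its Aid-Cre minus Mb1-Cre difference was -0.28. The pair with the largest Aid-Cre differences from wild type was Casd1, which acetylates sialic acids, at -0.40 ± 0.19 (limma adjusted p = 0.601), and Sem1, a proteasome subunit, at 0.27 ± 0.20 (adjusted p = 0.778). Sem1 was also 0.58 ± 0.19 above wild type in Mb1-Cre tumours (limma adjusted p = 0.295) and 0.57 ± 0.20 in Sca1-Cre tumours (adjusted p = 0.289). Slc25a13, the mitochondrial aspartate-glutamate carrier 742.9 kb away, was picked out after its values were seen. It stood 0.95 above wild type in Sca1-Cre, 0.48 in Mb1-Cre and 0.25 in Aid-Cre tumours, none of them called by limma. The 4 measured genes between Pon2 and Slc25a13 were all below the 40th percentile.

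**Figure D4:**
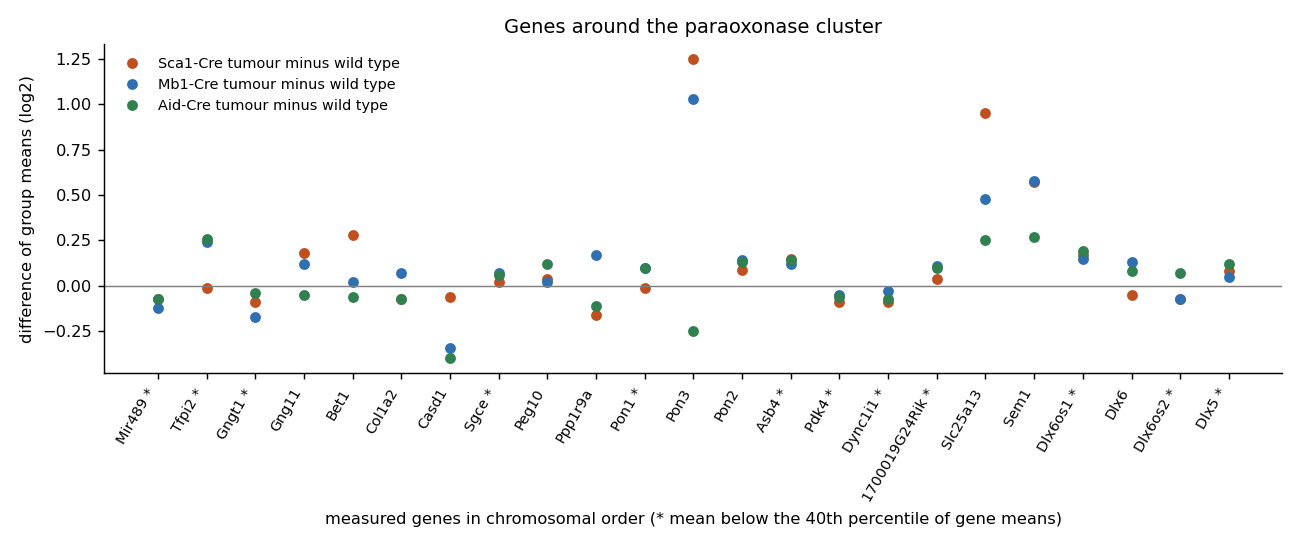
Differences from wild type in log2 units (vertical axis) for each measured gene around the paraoxonases in chromosomal order, one colour per tumour group; an asterisk marks a mean below the 40th percentile. Pon3 stands at 1.25 in Sca1-Cre and 1.03 in Mb1-Cre tumours and -0.25 in Aid-Cre tumours, while Pon2 next to it stays between 0.09 and 0.14.

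The genes most like Pon3 over the 19 arrays were sought among 12053 genes by Pearson's r, which is given as a description without a p, since all points share the same 19 libraries. The first 8 were Fut8 (0.87), Sec24d (0.86), Sdf2l1 (0.86), Dynll2 (0.85), Cnpy2 (0.85), Dap (0.84), Arid3a (0.83) and Bmpr1a (0.82). Fut8 adds core fucose to glycoproteins, Sec24d is a coat subunit of vesicles that leave the endoplasmic reticulum, and Sdf2l1 is a chaperone partner there. Sec24d had a mean of 6.48 in wild type, 7.35 in Sca1-Cre, 6.80 in Mb1-Cre and 6.30 in Aid-Cre tumours. Bmpr1a, a receptor for bone morphogenetic proteins, had 5.93, 6.89, 6.68 and 6.05 in the same groups. Arid3a, a B cell transcription factor, had 6.44, 6.90, 7.10 and 6.42. Since these genes were picked for their r to Pon3 over all arrays, Aid-Cre tumours included, nothing is read from the shared group pattern.

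**Figure D5:**
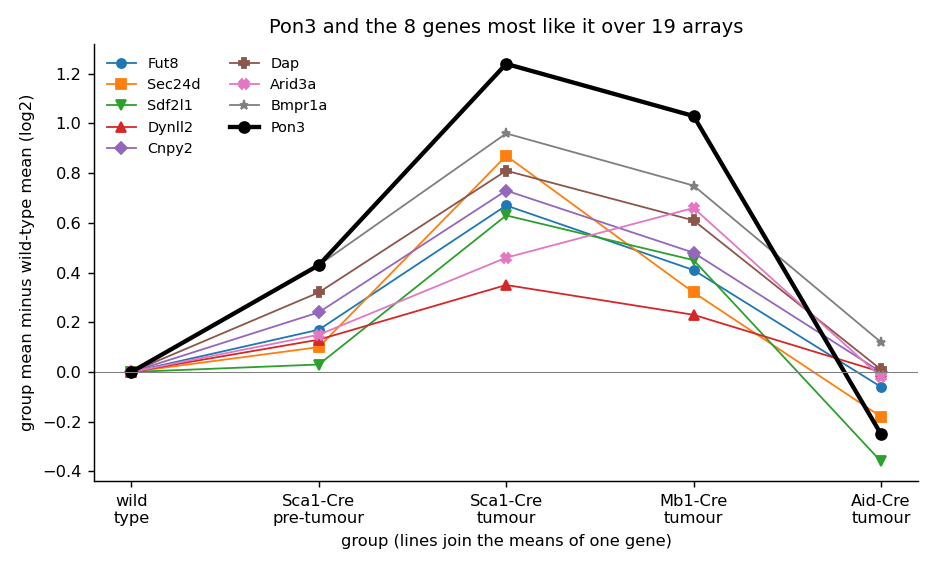
Group mean minus wild-type mean in log2 units (vertical axis) for Pon3 and the 8 genes with the highest correlation to it over 19 arrays. The lines are highest in Sca1-Cre or Mb1-Cre tumours and near 0 in Aid-Cre tumours, where Pon3 stands at -0.25 and Sdf2l1 lowest. The genes were picked by that correlation, so nothing is read from the shared pattern.

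After removal of group means, other genes led for Pon3: Mrpl28 (0.87), Atp5k (0.87), Phf5a (0.87), Dynll2 (0.84), Htra2 (0.84), Eif1ax (0.84), Thop1 (0.83) and Akap1 (0.82). Dynll2, a dynein light chain, was the gene on both lists. Mrpl28 is a mitochondrial ribosome protein, Atp5k a subunit of the ATP synthase and Htra2 a mitochondrial protease. Pon2 came 3109th of 12053 genes by likeness to Pon3, at an r of 0.25 over the 19 arrays.

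The genes most like Pon2 over the 19 arrays were Slc3a2 (0.91), Arf5, Ift57, Ssr1 and Sesn2 (0.90 each). Slc3a2 is the heavy chain of amino acid transporters, Ssr1 a subunit of the translocon-associated complex and Sesn2 a stress-induced regulator of growth signalling. Slc3a2 had group means of 9.72 in wild type, 9.44 before tumours, 9.93 in Sca1-Cre, 10.08 in Mb1-Cre and 10.05 in Aid-Cre tumours. It was picked by its r to Pon2 over the same arrays, so nothing is read from the likeness of these means. By deviations from group means the leaders were Adamtsl5 and Eif4ebp1 (0.93 each), then Arf5, Pla2g4c and Msrb1 (0.91 each). Eif4ebp1 is a repressor of translation initiation and Msrb1 repairs oxidised methionine.

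Other enzymes of the processes in which paraoxonases act were read from lists written from general knowledge. Limma called 0 of their measured members in any of the 10 comparisons, where at most 0.0451% of all genes were called. Of 26 antioxidant enzymes, 23 were measured. Their median was 0.36 above wild type in Mb1-Cre tumours, with 21 of 23 members positive, against a median of 0.00 over all genes. It was 0.07 in Sca1-Cre and 0.09 in Aid-Cre tumours. The smallest p among them in Mb1-Cre tumours belonged to Gpx3, a secreted glutathione peroxidase, at 0.74 ± 0.23 (limma adjusted p = 0.261), and to Msra, a methionine sulfoxide reductase, at 0.65 ± 0.22 (adjusted p = 0.299). In Sca1-Cre tumours they were Txn1, a thioredoxin, at 0.84 ± 0.33 and Sod2, the mitochondrial superoxide dismutase, at 0.39 ± 0.20.

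Of 15 genes of the endoplasmic reticulum stress response, 14 were measured. Their median was 0.31 above wild type in Sca1-Cre tumours, with 12 of 14 positive, and 0.17 in Mb1-Cre tumours, also with 12 of 14 positive. In Aid-Cre tumours it was 0.07 against wild type, with 8 of 14 positive, and -0.34 against the Sca1-Cre tumours. All-gene medians in these comparisons were between 0.00 and 0.01 in size. The disulphide isomerase Pdia3 stood 0.58 ± 0.13 above wild type in Sca1-Cre tumours (limma adjusted p = 0.125) and Edem1, of the degradation pathway, 0.49 ± 0.16 (adjusted p = 0.249). In Mb1-Cre tumours the leading member was the transcription factor Xbp1, 0.61 ± 0.19 (limma adjusted p = 0.261). Plasma cell markers (7 genes) stood 0.03 to 0.45 above the wild-type mean in Sca1-Cre tumours (median 0.14), 0.07 to 0.35 in Mb1-Cre tumours (median 0.15) while the wild-type median was 0.08. In Aid-Cre tumours they stood at 0.05, -0.80, 0.14 and -0.10 in replicates 1 to 4. Their median difference was -0.26 in Aid-Cre against Mb1-Cre tumours and -0.41 against Sca1-Cre tumours, with 6 of 7 negative in each. Their part in the Pon3 values was not tested.

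For lipoprotein particles and cholesterol efflux, 14 of 16 genes were measured, with a median of -0.04 in Sca1-Cre, 0.17 in Mb1-Cre and 0.00 in Aid-Cre tumours against wild type. Lcat, which esterifies cholesterol on high-density lipoprotein, was -0.40 ± 0.09 in Sca1-Cre tumours (limma adjusted p = 0.116), and the cholesterol exporter Abca1 -1.12 ± 0.36 (adjusted p = 0.249). In Aid-Cre tumours Lcat was -0.31 ± 0.09 (limma adjusted p = 0.365). Of 17 serum and tissue esterases, 14 were measured, with medians of -0.02 in Sca1-Cre, 0.07 in Mb1-Cre and -0.01 in Aid-Cre tumours. Bphl, a serine hydrolase, was -0.71 ± 0.18 in Aid-Cre against Sca1-Cre tumours (limma adjusted p = 0.112).

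In coenzyme Q synthesis, 12 of 13 genes were measured, with medians of -0.13 in Sca1-Cre, -0.07 in Mb1-Cre and -0.11 in Aid-Cre tumours against wild type. Coq8b, an atypical kinase of the pathway, was -0.34 ± 0.09 in Sca1-Cre tumours (limma adjusted p = 0.20) and -0.29 ± 0.09 in Mb1-Cre tumours (adjusted p = 0.261). Coq4, which organises the synthesis complex, was -0.36 ± 0.11 in Sca1-Cre (limma adjusted p = 0.212) and -0.33 ± 0.11 in Aid-Cre tumours (adjusted p = 0.425). None of these differences passed the threshold.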

How the data were processed

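RNA of 19 whole mouse spleens was hybridised to Affymetrix arrays. The authors deposited 1 log2 value for each probe set and array. Per the submitters' processing notes these came from RMA with the oligo package, for which the sources name no version. The values were used as deposited, and 0 columns were left unused. Groups came from the sample titles; the labels call the arrays biological replicates.

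Of 41345 probe sets, 23521 carried 1 gene symbol, 1814 several and 16010 none; 23328 were matched by gene identifier. For 1082 genes with several probe sets, that with the highest mean was kept, which left 22180 genes, with no filter on dim genes. Group means of all 5 groups were fitted in limma 3.58.1 (R 4.3.3; 14 residual and 2.46 prior degrees of freedom), two-sided, with Benjamini-Hochberg adjustment over all genes and calls under 0.05. The fit was tested on simulated data. Permutations (100000) shuffled Pon2 deviations within groups. Tables and plots used Python 3.11.15, pandas 2.3.3 and matplotlib 3.10.9.

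The members and lists were chosen with earlier results of these data known. Named genes were the paraoxonases; of the neighbours the called ones or else the pair with the largest Aid-Cre difference from wild type; the 8 genes most like Pon3 and 5 most like Pon2 by either measure, above the 40th percentile of gene means and leaving out predicted genes, small RNAs, olfactory and vomeronasal receptors, receptor segments and sex-linked genes; and the called members of each list or else the pair with the smallest p. Alternatives were other between-array normalizations, filters, probe set rules, variance models, array weights, a replicate block, a sex covariate, only the compared groups, and arrays left out.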

Additional observations from a re-analysis of the deposited data

How the results depend on the processing

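Under 13 alternative settings and 19 fits that each left out 1 array, the differences of Pon3 and Pon2 in the 6 tested comparisons kept their side of the threshold except in 4 cases, all of them Pon3 differences that passed under the alternative. The Aid-Cre differences of Pon3 and Pon2 were not set against a threshold. Over all genes, 0 were called in Aid-Cre minus Mb1-Cre with only the compared groups and with array weights. The same held there without any 1 of 5 single arrays, and in Aid-Cre minus Sca1-Cre with only the compared groups. Nothing about Pon3 is read from these counts. Mb1-Cre tumours minus wild type was 1.03 with only the compared groups (limma adjusted p = 0.0423) and 0.98 with array weights (adjusted p = 0.0326). Sca1-Cre tumours minus wild type was 1.15 with array weights (limma adjusted p = 0.0337) and 1.47 without Sca1-Cre tumour replicate 1 (adjusted p = 0.0406). With single arrays left out, Mb1-Cre minus wild type ranged from 0.93 to 1.09 (limma adjusted p from 0.11 to 0.564), Sca1-Cre minus wild type from 1.07 to 1.47 (adjusted p from 0.0406 to 0.267), Aid-Cre minus Mb1-Cre from -1.44 to -1.12 and Aid-Cre minus Sca1-Cre from -1.71 to -1.32. Without both arrays with pancreatic transcripts, Pon3 was 0.97 and 1.16 above wild type in Mb1-Cre and Sca1-Cre tumours (limma adjusted p = 0.571 and 0.277). With a sex covariate it was 1.05 and 1.28. Between-array scaling moved the median gene by at most 0.0501. The cause of the changed calls was not tested.

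Counts of called genes moved more: 0 to 343 in Mb1-Cre minus wild type, 0 to 99 in Sca1-Cre minus wild type, 0 to 41 in Aid-Cre minus wild type and 0 to 1714 in Mb1-Cre minus pre-tumour over the other settings. The 1714 and the 343 came with array weights. Pre-tumour minus wild type had 0 to 53, Aid-Cre minus Mb1-Cre 0 to 12, Aid-Cre minus Sca1-Cre 0 to 39, Aid-Cre minus pre-tumour 0 to 7, Mb1-Cre minus Sca1-Cre 0 to 33 and Sca1-Cre minus pre-tumour 0 to 1. With 1 array left out the counts reached 229 (Aid-Cre minus Sca1-Cre, without Aid-Cre tumour replicate 3), 121 (Mb1-Cre minus Sca1-Cre, without the same array) and 27 (Aid-Cre minus Mb1-Cre, without Mb1-Cre tumour replicate 1).

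Pairing by replicate number was not seen, though so few arrays per group cannot exclude it. Over 33 pairs of arrays with the same number the median correlation of deviations was -0.05 (-0.53 to 0.41), against 0.01 for different numbers. With the replicate number as a block, Pon3 was 0.87 above wild type in Mb1-Cre tumours (limma adjusted p = 0.388) and 1.19 in Sca1-Cre tumours (adjusted p = 0.233), 0.44 before tumours, and no call of Pon3 or Pon2 in the 6 tested comparisons changed. The block took the called genes of Aid-Cre minus Mb1-Cre and of Aid-Cre minus Sca1-Cre to 0 each. Nothing is read from this about Pon3, which was chosen on Aid-Cre values. Precision is limited by the 3 to 5 arrays per group.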
